A study of Mus musculus with 8 samples.

Results

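The genes for the translation initiation and elongation factors of mouse embryonic stem cells were followed after deletion of Htatsf1. The members were every gene identifier of the deposited expression tables that begins with Eif or Eef, leaving out the eIF2 alpha kinases Eif2ak1 to Eif2ak4, the eIF2 gamma genes Eif2s3x and Eif2s3y, the eEF2 kinase gene Eef2k and the Eef1akmt methyltransferase genes. The rule gave 61 of 20461 identifiers, and 58 of them were tested, having reached 1 FPKM in no fewer than 2 libraries. FPKM is a fragment count scaled by transcript length and by library size, so it compares levels per length. Of the other members, Eif2c4 and Eif4e1b stayed under the filter, and Eif3j1 had too few reads for an estimate in the deposited files, where it shares its locus with Eif3j2. The rule goes by name, so it also takes in Eif4a3 and Eef1e1, whose main roles lie outside initiation and elongation, and Eif2c1 to Eif2c4, the former names of the Argonaute genes Ago1 to Ago4.

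The cells came from mice that were flox/flox for tatsf1 and carried CreERT2, a recombinase that tamoxifen switches on, and all 4 groups share this genotype. They were grown on mouse embryonic fibroblasts, a feeder layer whose RNA is also in the libraries. Tamoxifen for 48 h, ethanol for 48 h, tamoxifen for 72 h and ethanol for 72 h gave 2 libraries each, with ethanol as the vehicle. No group without CreERT2 is among the samples used here, so deletion of the gene and any other action of tamoxifen cannot be told apart. Whether libraries of one group are separate cultures, and how many stem cell lines were used, is not given in the labels, so the spread behind every p-value may be technical. Time cannot be told apart from whatever a number in the deposited file names marks, since that number is the same in all 48 h libraries and another in all 72 h libraries.

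Htatsf1, the targeted gene at chrX:54306747-54320359 of mm9, stood at 4.13 and 3.78 FPKM in tamoxifen, against 23.0 and 21.7 in ethanol at 48 h, and at 4.12 and 4.63 FPKM in tamoxifen, against 22.7 and 22.7 in ethanol at 72 h. Implied depth was 8.99 to 16.85 M fragments per library, and the fragments behind a tested member ran from 20 for Eef1a2 to 188910 for Eef1a1. Fibroblast markers were higher in tamoxifen at both times, with 33 of 35 past the test at each and 0 lower. Their summed level was 1528 to 1551 FPKM in tamoxifen and 1064 to 1111 FPKM in ethanol at 48 h, and 2137 to 2283 FPKM in tamoxifen and 1149 to 1199 FPKM in ethanol at 72 h. Of 14 stem cell markers, Sox2 was listed at 0 in all 8 libraries, and the summed level was 3298 to 3398 FPKM in tamoxifen and 3444 to 3523 FPKM in ethanol at 48 h. At 72 h it was 3541 to 3993 FPKM in tamoxifen and 4447 to 4594 FPKM in ethanol, with 8 of 13 tested markers lower and 0 higher. Markers of primitive endoderm summed to 8.75 to 9.38 FPKM in tamoxifen and 7.55 to 8.84 FPKM in ethanol at 48 h, and to 17.1 to 17.3 FPKM in tamoxifen and 13.4 to 14.2 FPKM in ethanol at 72 h, with 3 of 5 tested markers higher and 1 lower. Those of trophoblast summed to 64.7 to 67.5 FPKM in tamoxifen and 54.9 to 58.2 FPKM in ethanol at 48 h, and to 129.5 to 136 FPKM in tamoxifen and 121 to 122 FPKM in ethanol at 72 h, with 3 of 5 higher and 1 lower. In such mixed cultures fewer cells of a type and less RNA per cell cannot be told apart, and the part of these other cell types in the results below was not tested.

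Translation of most messenger RNAs starts when the eIF4F complex (the cap-binding protein eIF4E, the scaffold eIF4G and the helicase eIF4A) binds the cap and recruits a small ribosomal subunit loaded with eIF3, eIF1, eIF1A, eIF5 and the ternary complex of eIF2, GTP and initiator tRNA. eIF2B recharges eIF2 with GTP and is the step blocked when eIF2 alpha is phosphorylated under stress, while the eIF4E-binding proteins hold eIF4E back until mTOR phosphorylates them. eEF1A then carries aminoacyl-tRNA to the ribosome, the eEF1B subunits recharge it, eEF2 moves the ribosome along, and eIF5A helps it through difficult peptide bonds. Embryonic stem cells are known for a low rate of translation, which rises as they differentiate.

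Of the elongation factor genes Eef1a1, Eef2, Eef1g and Eef1b2 were among the 6 members of highest mean, beside Eif4a1 and Eif5a, while Eefsec (10.1 FPKM), the carrier of selenocysteine tRNA, and Eef1a2 (1.25 FPKM) were among the lowest. Eef1a1, which encodes the aminoacyl-tRNA carrier, was the highest at 4406 and 4331 FPKM in tamoxifen, against 4191 and 4218 in ethanol at 48 h and 5674 and 5992 FPKM in tamoxifen, against 5626 and 5508 in ethanol at 72 h. It took 29.1% of the summed FPKM of all 61 members in tamoxifen and 28.0% in ethanol at 48 h, and 34.6% in tamoxifen and 34.1% in ethanol at 72 h. Eef2, the translocase, had 1050.2 and 1084 FPKM in tamoxifen, against 1016 and 987 in ethanol at 48 h and 1905 and 1763 FPKM in tamoxifen, against 1692 and 1614 in ethanol at 72 h. Eef1b2, which encodes the exchange subunit of eEF1B, had 488 and 459 FPKM in tamoxifen, against 513 and 524 in ethanol at 48 h and 532 and 552 FPKM in tamoxifen, against 525 and 511 in ethanol at 72 h. Eif4a1, Eif5a and Eef1g also averaged close to one another, at 1018, 1005 and 968 FPKM over the 8 libraries, with overlapping ranges.

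Subunit genes of eIF3 and of eIF2B each spanned a narrower fold range than those of eIF2 and eIF4F. The 13 tested eIF3 genes ran from 81.7 FPKM for Eif3j2 to 266 FPKM for Eif3k as means over the 8 libraries, and the 5 eIF2B genes from 21.1 FPKM for Eif2b4 to 53.0 FPKM for Eif2b5. eIF2 alpha (Eif2s1) averaged 106 FPKM and eIF2 beta (Eif2s2) 445 FPKM, and the eIF4F genes included Eif4a1 at 1018 FPKM and Eif4g3 at 16.9 FPKM. Some paralogues stood far apart, with Eif5a at 1005 FPKM and Eif5a2 at 6.84 FPKM, and Eef1a1 at 4993 FPKM and Eef1a2, the copy known from brain and muscle, at 1.25 FPKM, while others were close, with Eif4g1 at 175 FPKM and Eif4g2 at 215 FPKM. Eif4e, at 82.4 FPKM, stood above its homologues Eif4e2 (55.4 FPKM) and Eif4e3 (2.21 FPKM), and the repressor gene Eif4ebp1 (299 FPKM) stood above Eif4e in every group. The members' median was 120 FPKM in tamoxifen and 124 FPKM in ethanol at 48 h, and 107 FPKM in tamoxifen and 105 FPKM in ethanol at 72 h, while that of all tested genes lay between 9.46 and 10.9 FPKM. Near copies, stretches of at least 95% identity over at least 200 bases, were found in transcripts of other genes for 26 members. Among them were 9 pseudogenes for Eef1a1 and matches in 13 genes for Eif1, so levels may hold reads of copies. Whether a matched gene lies elsewhere or overlaps the member was not checked. Eif3j1 and Eif3j2, at the same locus, match each other. Entries of Eif4a2, Eif2a, Eif3j1, Eif3j2, Eif3m and Eif5b overlap another gene's entry in the files.

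**Figure D1:**
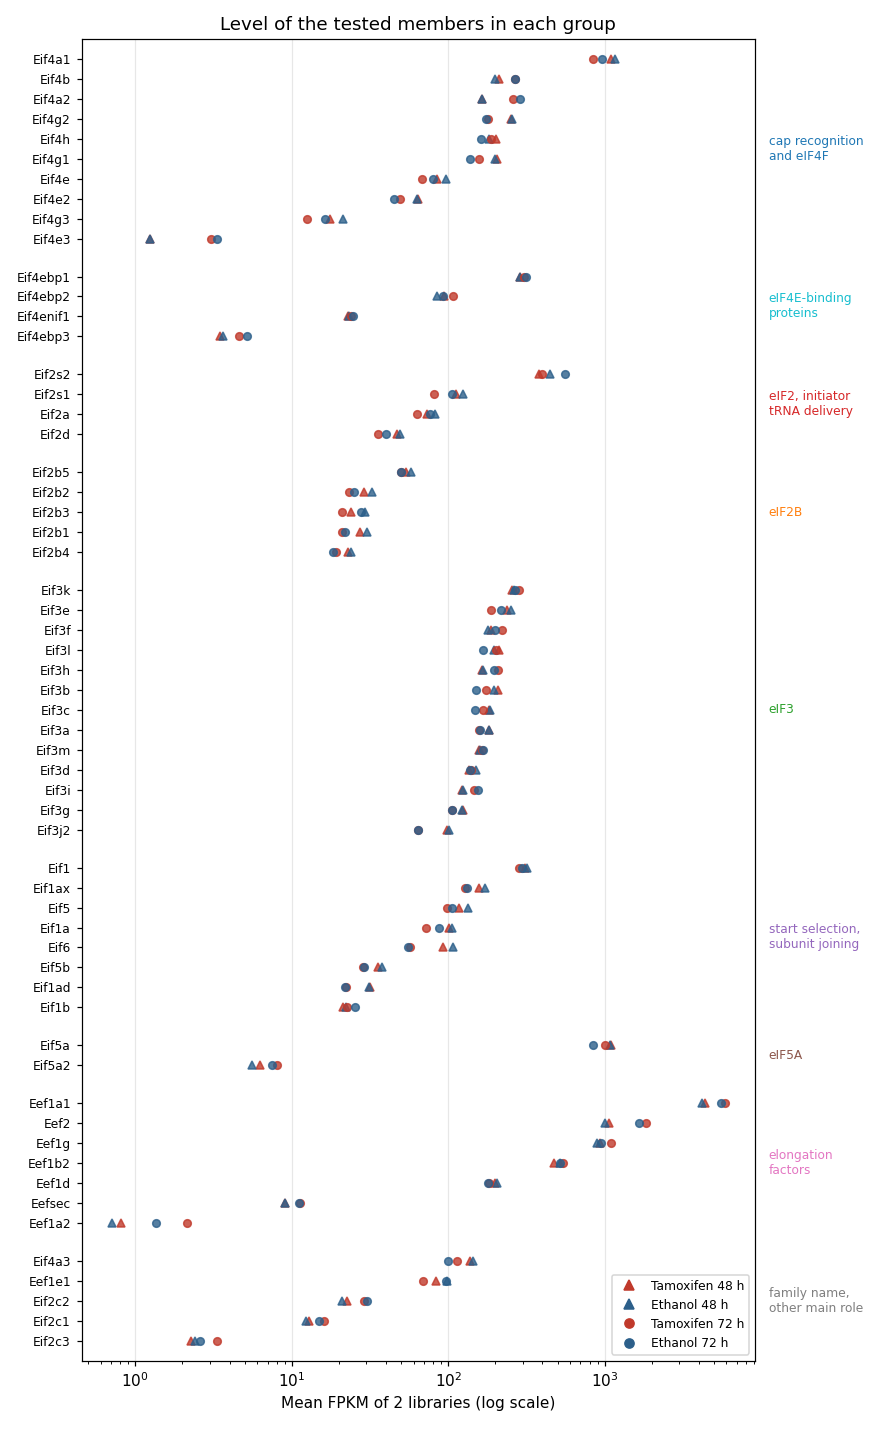
Mean FPKM of the 58 tested members (log axis) in tamoxifen (red) and ethanol (blue) at 48 h (triangles) and 72 h (circles), 2 libraries each, grouped by role. Eef1a1 lies highest in every group, the eIF3 subunits lie close together, and Eef1a2 lies lowest.

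Many messenger RNAs of the translation machinery are known as TOP mRNAs, which begin with a C followed by a run of pyrimidines and are held back as a group when mTOR is inhibited. The bases around annotated start sites are shown to set the members beside that feature. A run of at least 6 bases of only C or T that touched the 5 bases on either side of a RefSeq start was searched on the coding strand of the promoter table (GRCm38.p6, a later build than the mm9 of the files). Of 44 tested members with a promoter entry, 7 held such a run at any of their starts (15.9%), and 23.0% of all 27025 genes with an entry held one at any start. The starts of the 4 members with a run below were chr9:78481710-78481739 (minus strand) for Eef1a1, chr7:108934400-108934429 (plus strand) for Eif3f, chr15:79075208-79075237 (plus strand) for Eif3l and chr16:20672712-20672741 (plus strand) for Eif4g1. Those of 3 members without one were chr10:81176616-81176645 (plus strand) for Eef2, chr12:78862057-78862086 (plus strand) for Eif2s1 and chr2:154892892-154892921 (minus strand) for Eif2s2. Each line holds 15 bases before and 15 from the RefSeq start on, with the run in capitals.
Eef1a1: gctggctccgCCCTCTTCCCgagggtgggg
Eif3f: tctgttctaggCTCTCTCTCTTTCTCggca
Eif3l: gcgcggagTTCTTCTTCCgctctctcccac
Eif4g1: cgccagcgcagctccgCCCTCTgcgccggt
Eef2: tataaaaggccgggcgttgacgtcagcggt
Eif2s1: cgctgggttgggcgaagcgcacgctgagga
Eif2s2: cacgtaaggttggctttactgtacgcctgc
Of the members higher in tamoxifen at 72 h, 3 of the 10 with an entry held a run (Eif4g1, Eif3f and Eif3l). Of those that were lower 1 of 7 did (Eif4e, at 1 of its 2 starts), and of those not called 3 of 27. Eef2 is a known TOP gene without a run in this window, so a missing match says only that these letters are not there.

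At 48 h few members differed between tamoxifen and ethanol, and by little. Of 58 tested, 0 were higher and 4 were lower (6.90%), while 12.4% of all 11867 tested genes were called, 7.88% higher and 4.47% lower (limma, Benjamini-Hochberg adjusted p at or under 0.05). By unadjusted p under 0.05, 13 members passed. The changes ran from -0.30 for Eif2b3 to 0.15 for Eif4h on the log2 scale of FPKM + 1, with a median of -0.03 beside 0.02 for all genes. Fibroblast markers had a median log2 change of 0.51 in the same libraries.

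Eif4g3 and Eif2b3 were among the 4 lower members. Eif4g3, at chr4:137549371-137762994 of mm9, encodes the less abundant eIF4G scaffold and had 17.6 and 17.7 FPKM in tamoxifen, against 22.0 and 20.7 in ethanol (log2 change -0.26 ± 0.06 SE, adjusted p = 0.0267). Eif2b3, at chr4:116692013-116759457, encodes the gamma subunit of eIF2B and had 26.0 and 21.5 FPKM in tamoxifen, against 29.2 and 29.3 in ethanol (-0.30 ± 0.08 SE, adjusted p = 0.0409). Both tamoxifen libraries lay below both ethanol libraries for each gene. Eif5, at chr12:112776312-112784964, encodes the GTPase activator of eIF2 and had 117 and 119 FPKM in tamoxifen, against 136 and 133 in ethanol (-0.19 ± 0.05 SE, adjusted p = 0.04). Eif6, at chr2:155645573-155652661, encodes the factor that keeps the ribosomal subunits apart and had 94.2 and 91.5 FPKM in tamoxifen, against 104 and 109 in ethanol (-0.20 ± 0.06 SE, adjusted p = 0.0437). The groups did not overlap for these genes either, as for 32 of all 58 tested members at 48 h, called or not. The share over all genes is not given here, so the separation adds little to a call. Eef1e1 came next, with 86.6 and 79.5 FPKM in tamoxifen, against 96.9 and 99.7 in ethanol (-0.24 ± 0.08 SE, adjusted p = 0.0881), and lay above the threshold. The calls rested on single libraries: leaving out tamoxifen 48 h replicate 1 left 1 call, tamoxifen 48 h replicate 2, ethanol 48 h replicate 1 or ethanol 48 h replicate 2 left 0, and ethanol 72 h replicate 1 or ethanol 72 h replicate 2, which enter through the shared spread, left 2.

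**Figure D2:**
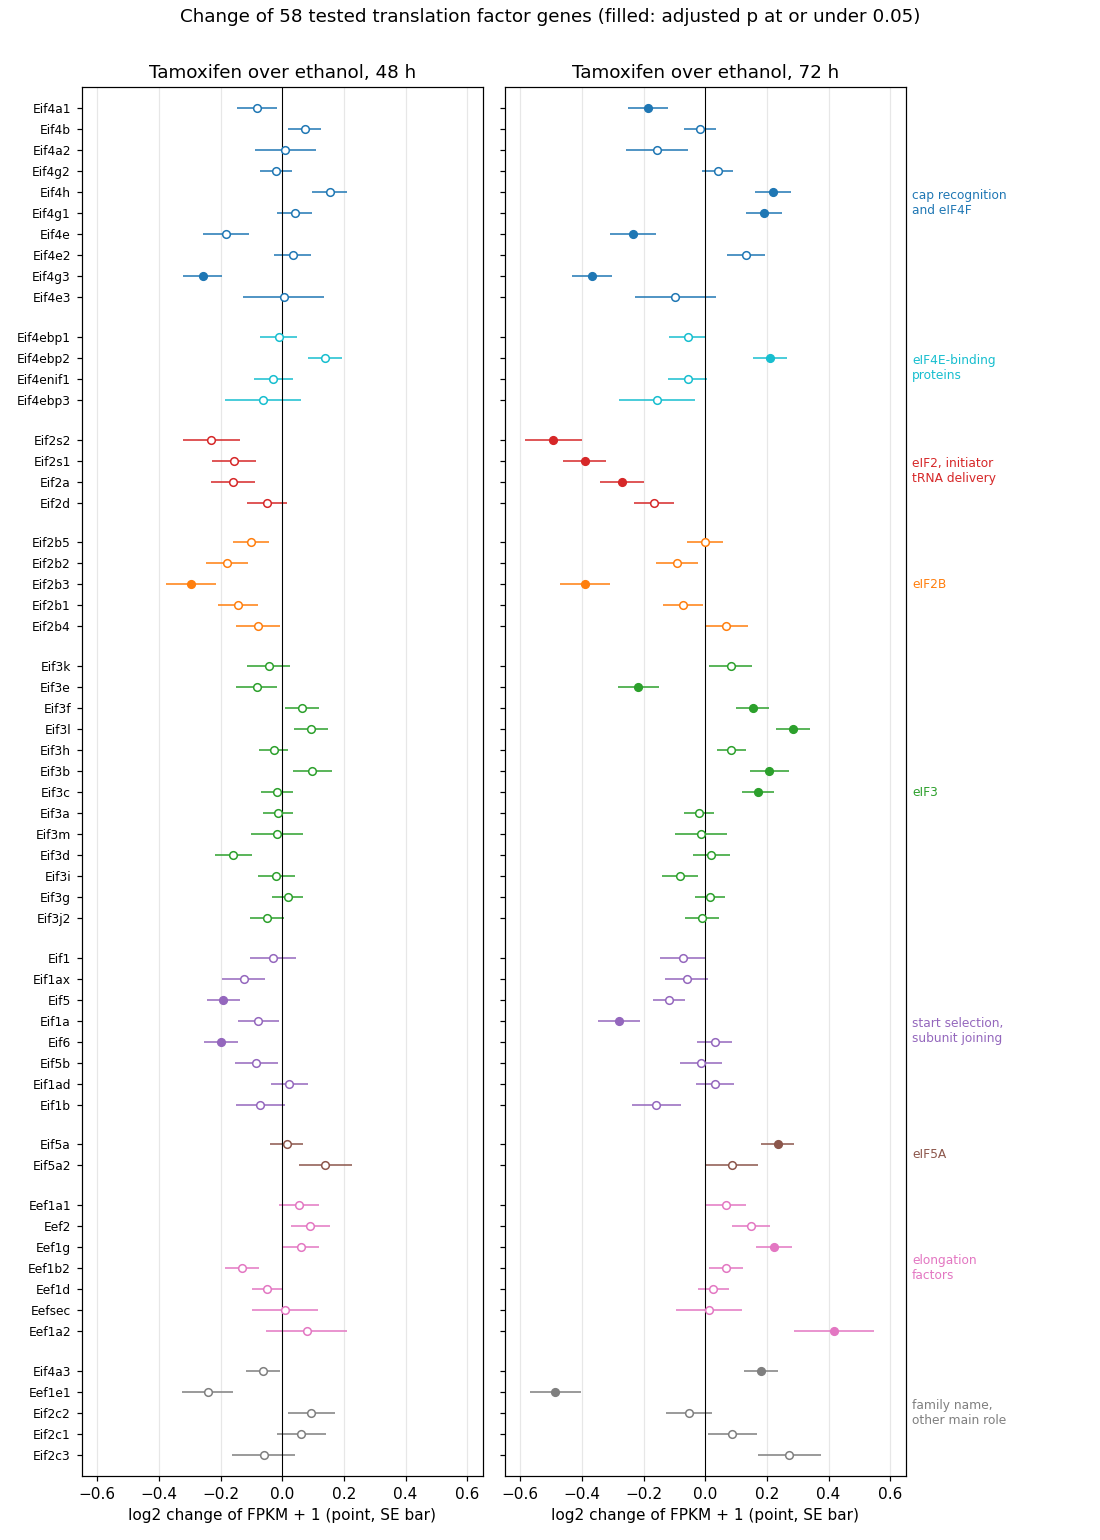
Log2 change of FPKM + 1, tamoxifen over ethanol, of the 58 tested members at 48 h (left) and 72 h (right), with standard errors, grouped by role. Filled points have an adjusted p at or under 0.05: 4 at 48 h, all to the left of 0, and 21 at 72 h, 11 to the right and 10 to the left.

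At 72 h members moved both ways, with 11 higher and 10 lower in tamoxifen (36.2% of 58), beside 38.5% of all tested genes, 20.1% higher and 18.5% lower. That share is near the share of all genes. The median log2 change was -0.005 for the members and -0.005 for all genes, and the range went from -0.49 for Eif2s2 to 0.42 for Eef1a2, so no member reached a 2-fold change on the scale of FPKM + 1, which understates changes of scarce members such as Eef1a2. In all 21 called members the libraries of the 2 treatments did not overlap. The same held for 37 of the 58 tested members, called or not, so it adds little to a call. Its share over all genes is not given here. The 10 lower members had a lower estimate at 48 h too, and 9 of the 11 higher ones a higher one. The same count over all called genes is not given here, so this is not shown to be particular to the members. Fibroblast markers had a median log2 change of 1.00 and stem cell markers of -0.33 at this time. With quantile normalization 6 members were higher and 10 lower.

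Calls at 72 h leaned on a pair of libraries. Without tamoxifen 72 h replicate 1, 2 higher and 5 lower members remained, and without ethanol 72 h replicate 2, 3 higher and 5 lower. Eef1e1, Eif4g3, Eif2s1, Eif2s2, Eif2b3 and Eif3l passed under every alternative tried, and Eif5a under every one but quantile normalization (adjusted p = 0.0628, with 0.00579 to 0.0628 over all alternatives). Each of the other 14 lost its call without tamoxifen 72 h replicate 1, and all of these but Eif3c also without ethanol 72 h replicate 2, where adjusted p values ran up to 0.285. Eif3f and Eif4a1, the weakest calls, also lost theirs without any one of the 48 h libraries.

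The genes that deliver initiator tRNA were the group with the lowest median at 72 h (-0.33), and 3 of 4 were lower and 0 higher. Eif2s2, at chr2:154697146-154718642 of mm9, encodes eIF2 beta and had 361 and 431 FPKM in tamoxifen, against 549.6 and 561 in ethanol (log2 change -0.49 ± 0.09 SE, adjusted p = 0.00217). Eif2s1, at chr12:79963059-79987997, encodes eIF2 alpha, the subunit that stress kinases phosphorylate, and had 76.5 and 85.3 FPKM in tamoxifen, against 101 and 111 in ethanol (-0.39 ± 0.07 SE, adjusted p = 0.0018). For both genes the tamoxifen libraries lay well below the ethanol ones, and the estimates at 48 h were -0.23 and -0.16, uncalled. Near copies are annotated as 1 pseudogene for Eif2s2 and 2 for Eif2s1. Eif2a, which encodes a separate factor that binds initiator tRNA without GTP, had 60.5 and 66.0 FPKM in tamoxifen, against 71.3 and 81.7 in ethanol (-0.27 ± 0.07 SE, adjusted p = 0.0133, with 0.0066 to 0.113 over the alternatives, and lost without tamoxifen 72 h replicate 1 or ethanol 72 h replicate 2). Eif2d, another such factor, had 36.8 and 34.4 FPKM in tamoxifen, against 39.2 and 40.9 in ethanol (-0.17 ± 0.06 SE, adjusted p = 0.0661) and passed only with median-ratio scaling. The remaining eIF2 subunit is the product of Eif2s3x, outside the members, whose log2 change was 0.08 ± 0.06 SE (adjusted p = 0.294).

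Of the 5 eIF2B subunit genes 1 was lower at 72 h. Eif2b3 had 20.3 and 21.4 FPKM in tamoxifen, against 28.0 and 27.2 in ethanol (log2 change -0.39 ± 0.08 SE, adjusted p = 0.00416), and its libraries were apart at both times. The other subunits had log2 changes of -0.09 (Eif2b2, beta), -0.07 (Eif2b1, alpha), 0.00 (Eif2b5, the catalytic epsilon) and 0.07 (Eif2b4, delta), with adjusted p of 0.312 or more. At 48 h all 5 estimates were negative, from -0.30 to -0.08, with Eif2b3 alone past the test.

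**Figure D3:**
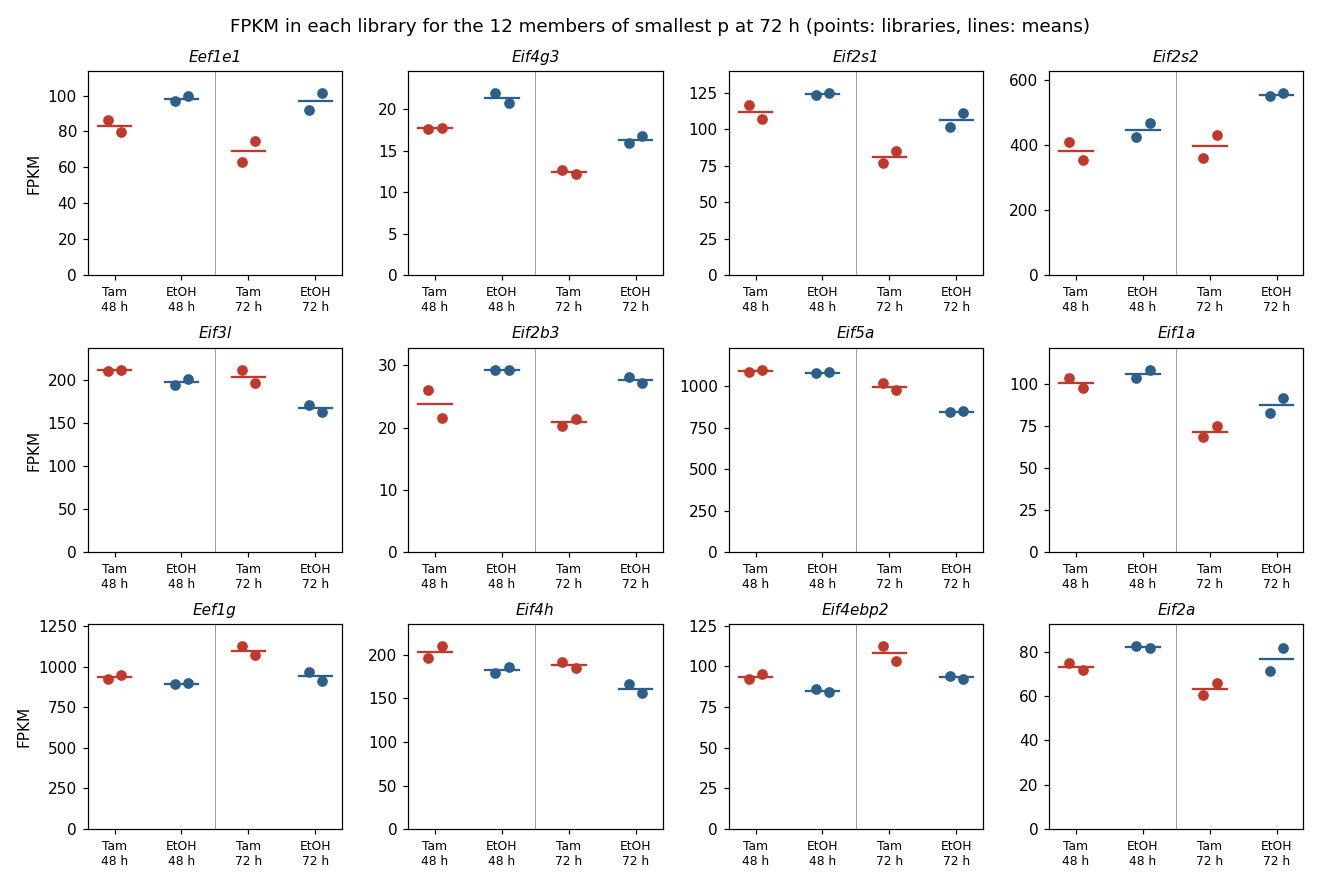
FPKM in each library of the 12 members with the smallest p at 72 h, in tamoxifen (red) left of ethanol (blue) at 48 h and at 72 h, with a line at each group mean and the axis from 0. At 72 h the 2 red points lie on one side of both blue points in every panel, below them for Eef1e1, Eif4g3, Eif2s1, Eif2s2, Eif2b3, Eif1a and Eif2a and above them for the other 5.

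The genes of cap recognition and eIF4F, cofactors and homologues included, moved apart from one another at 72 h, with 2 higher and 3 lower of 10. Eif4g3 had 12.7 and 12.2 FPKM in tamoxifen, against 15.9 and 16.7 in ethanol (log2 change -0.37 ± 0.06 SE, adjusted p = 0.00149). Eif4g1, at chr16:20672822-20692956 of mm9, encodes the main eIF4G scaffold and had 164 and 150.1 FPKM in tamoxifen, against 141 and 135 in ethanol (0.19 ± 0.06 SE, adjusted p = 0.0253). The scaffold paralogues Eif4g3 and Eif4g1 went in opposite directions, while Eif4g2, the homologue that lacks the eIF4E site, had 183 and 177 FPKM in tamoxifen, against 174 and 176 in ethanol (0.04 ± 0.05 SE, adjusted p = 0.563). Eif4e, the cap-binding protein gene, had 64.4 and 71.4 FPKM in tamoxifen, against 75.4 and 84.7 in ethanol (-0.23 ± 0.07 SE, adjusted p = 0.0309). Eif4a1, the main helicase gene, had 798 and 888 FPKM in tamoxifen, against 956 and 959 in ethanol (-0.19 ± 0.06 SE, adjusted p = 0.0434). For both the tamoxifen libraries lay below the ethanol ones by a margin no wider than the spread within tamoxifen. The helicase cofactor gene Eif4h had 191 and 185 FPKM in tamoxifen, against 167 and 156 in ethanol (0.22 ± 0.06 SE, adjusted p = 0.0126), while the other cofactor gene, Eif4b, had 272 and 259 FPKM in tamoxifen, against 276 and 261 in ethanol (-0.02 ± 0.05 SE, adjusted p = 0.827). Over the alternatives the adjusted p ran 0.0102 to 0.141 for Eif4g1, 0.0176 to 0.214 for Eif4e, 0.012 to 0.231 for Eif4a1 and 0.0118 to 0.0939 for Eif4h, and each of these calls was lost without tamoxifen 72 h replicate 1 or ethanol 72 h replicate 2.

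Of the 4 eIF4E-binding protein genes 1 was higher at 72 h. Eif4ebp2, which encodes a repressor of eIF4E, had 112 and 104 FPKM in tamoxifen, against 93.8 and 92.5 in ethanol (log2 change 0.21 ± 0.06 SE, adjusted p = 0.0131, with 0.00722 to 0.0767 over the alternatives, and lost without tamoxifen 72 h replicate 1 or ethanol 72 h replicate 2). Eif4ebp1, the more abundant repressor gene, had 295 and 312 FPKM in tamoxifen, against 306 and 326 in ethanol (-0.06 ± 0.06 SE, adjusted p = 0.487). Eif4ebp3 and Eif4enif1, which encode another repressor and the nuclear importer of eIF4E, had log2 changes of -0.16 and -0.06 and did not pass. The ratio of Eif4ebp1 to Eif4e, from group means of FPKM and without a test, was 4.47 in tamoxifen and 3.94 in ethanol at 72 h, and 3.37 in tamoxifen and 2.99 in ethanol at 48 h.

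Of 13 tested eIF3 subunit genes 4 were higher and 1 was lower at 72 h, with a median of 0.02. Eif3l, at chr15:78905653-78924830 of mm9, had 211 and 196 FPKM in tamoxifen, against 170.5 and 163 in ethanol (log2 change 0.28 ± 0.06 SE, adjusted p = 0.0027). Eif3b, a core subunit gene, had 185 and 162 FPKM in tamoxifen, against 152 and 147 in ethanol (0.21 ± 0.06 SE, adjusted p = 0.0263). Eif3c, another core subunit gene, had 171 and 164 FPKM in tamoxifen, against 145 and 153 in ethanol (0.17 ± 0.05 SE, adjusted p = 0.0256). The tamoxifen libraries lay above the ethanol libraries in all 3. Eif3f had 223.2 and 219 FPKM in tamoxifen, against 207 and 191 in ethanol (0.15 ± 0.05 SE, adjusted p = 0.0485). Eif3e had 180.3 and 195 FPKM in tamoxifen, against 212 and 225 in ethanol (-0.22 ± 0.07 SE, adjusted p = 0.0267) and was the only one of the 13 called lower. The other 8 ranged from -0.08 for Eif3i to 0.08 for Eif3h, and Eif3a, the gene of a core subunit, had 159 and 155 FPKM in tamoxifen, against 162 and 157 in ethanol (-0.02 ± 0.05 SE, adjusted p = 0.776). Over the alternatives the adjusted p ran 0.00363 to 0.162 for Eif3b, 0.0236 to 0.157 for Eif3c, 0.0354 to 0.285 for Eif3f and 0.0139 to 0.151 for Eif3e, all lost without tamoxifen 72 h replicate 1, Eif3b and Eif3c also without ethanol 72 h replicate 1, and Eif3b, Eif3e and Eif3f also without ethanol 72 h replicate 2. Eif3e has 2 pseudogenes that match most of its transcript.

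Among the 8 genes of start selection and subunit joining 1 was lower at 72 h. Eif1a, on chromosome 18, is an eIF1A gene and had 68.7 and 75.1 FPKM in tamoxifen, against 83.2 and 91.9 in ethanol (log2 change -0.28 ± 0.07 SE, adjusted p = 0.0083, with 0.00454 to 0.0729 over the alternatives, and lost without tamoxifen 72 h replicate 1 or ethanol 72 h replicate 2). Its X-linked counterpart Eif1ax had 118 and 136 FPKM in tamoxifen, against 132 and 133 in ethanol (-0.06 ± 0.07 SE, adjusted p = 0.524). Eif5 and Eif6, called lower at 48 h, had log2 changes of -0.12 (adjusted p = 0.104) and 0.03 (adjusted p = 0.698) at 72 h. For Eif6 the libraries of the 2 treatments overlapped at 72 h, with 58.8 and 55.1 FPKM in tamoxifen, against 54.7 and 56.8 in ethanol. Eif1, which guards start codon choice, and Eif5b, the subunit joining GTPase gene, had log2 changes of -0.07 and -0.01.

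Of the 7 elongation factor genes 2 were higher and 0 lower at 72 h, and 0 passed with quantile normalization. Eef1g, which encodes a structural subunit of eEF1B, had 1126 and 1071 FPKM in tamoxifen, against 969 and 913 in ethanol (log2 change 0.22 ± 0.06 SE, adjusted p = 0.0119). Eef1a2 had 2.34 and 1.94 FPKM in tamoxifen, against 1.47 and 1.22 in ethanol (0.42 ± 0.13 SE, adjusted p = 0.0281), a change at a level of at most 2.34 FPKM that rests on at most 93 fragments in a library. Both calls were lost without tamoxifen 72 h replicate 1 or ethanol 72 h replicate 2, and the adjusted p ran 0.011 to 0.125 for Eef1g and 0.0136 to 0.159 for Eef1a2 over the alternatives. The abundant Eef1a1 and Eef2 had log2 changes of 0.07 (adjusted p = 0.447) and 0.15 (adjusted p = 0.0819). Eif5a, at chr11:69730214-69735460 of mm9, encodes the hypusine-bearing factor and had 1019 and 977 FPKM in tamoxifen, against 844 and 851 in ethanol (0.23 ± 0.05 SE, adjusted p = 0.00642). Its libraries did not overlap at 72 h but did at 48 h, with 1085 and 1101 FPKM in tamoxifen, against 1077 and 1088 in ethanol. The scarce paralogue Eif5a2 had a log2 change of 0.09 (adjusted p = 0.462).

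Of the members whose main role lies elsewhere, Eef1e1 had the smallest p of all members at 72 h. It encodes a scaffold of the multi-tRNA synthetase complex, lies at chr13:38737560-38750897 of mm9 and had 63.0 and 74.9 FPKM in tamoxifen, against 91.9 and 102 in ethanol (log2 change -0.49 ± 0.08 SE, adjusted p = 0.00135). Eif4a3, which encodes the helicase core of the exon junction complex, had 116 and 111 FPKM in tamoxifen, against 102 and 97.6 in ethanol (0.18 ± 0.06 SE, adjusted p = 0.027, with 0.0223 to 0.149 over the alternatives, and lost without tamoxifen 72 h replicate 1 or ethanol 72 h replicate 2). The libraries were apart for both. Among the Argonaute genes Eif2c3 came nearest to the threshold, with 3.16 and 3.50 FPKM in tamoxifen, against 2.47 and 2.70 in ethanol (0.27 ± 0.10 SE, adjusted p = 0.0572), and Eif2c1 and Eif2c2 had log2 changes of 0.09 and -0.05.

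Whether the tamoxifen change itself differed between the times was tested in the same fit, and 0 of 58 members passed, while 3.45% of all genes did, 2% with a higher and 1.45% with a lower change at 72 h. At an unadjusted p under 0.05, 8 members passed, and the smallest adjusted p was 0.118 for Eif4a3. The estimates ran from -0.26 ± 0.13 SE for Eif2s2 to 0.34 ± 0.18 SE for Eef1a2, so the larger number of calls at 72 h is not shown to be a different response of any one member. Eif6, lower at 48 h and uncalled at 72 h, differed by 0.23 ± 0.08 SE (adjusted p = 0.137).

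Most members differed between 72 h and 48 h in both treatments, and more fell than rose. In tamoxifen 18 were higher and 25 lower at 72 h (74.1% of 58, beside 57.1% of all genes, 37.5% higher and 19.6% lower). In ethanol 15 were higher and 29 lower (75.9%, beside 57.2%, 38.0% higher and 19.2% lower). The direction was shared by the 37 members called in both, 14 higher and 23 lower, and 0 went opposite ways. The same count over all genes is not given here, so the shared direction is not shown to be particular to the members. The median of all genes was itself 0.11 above 0 in each treatment, and the members' median log2 change lay -0.24 from it in tamoxifen (-0.12) and -0.26 from it in ethanol (-0.15). Median-ratio scaling, which takes out the shift of all genes, left 9 members higher and 33 lower in each treatment. With quantile normalization the members' median lay only -0.037 from that of all genes in tamoxifen and -0.048 from it in ethanol, with 13 members higher and 25 lower in tamoxifen and 12 higher and 22 lower in ethanol.

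Eif6 had the lowest log2 change of the tested members in each treatment. Eif6 in tamoxifen had 58.8 and 55.1 FPKM at 72 h, against 94.2 and 91.5 at 48 h (log2 change -0.70 ± 0.06 SE, adjusted p = 7.76e-06). In ethanol it had 54.7 and 56.8 FPKM at 72 h, against 104 and 109 at 48 h (-0.92 ± 0.06 SE, adjusted p = 1.43e-06). The entry Eif3j2, for a loosely bound eIF3 subunit, which cannot be told apart from Eif3j1 at the same locus, fell by 0.60 in tamoxifen and by 0.64 on the log2 scale in ethanol. Eif1ad, an eIF1A domain gene, changed by -0.48 in tamoxifen and -0.49 in ethanol, and Eif4g2 by -0.48 in tamoxifen and -0.54 in ethanol. By group, 6 of 8 genes of start selection fell and 0 rose in each treatment, and the eIF2B genes fell in 3 of 5 cases in tamoxifen and 4 of 5 in ethanol. Under median-ratio scaling these became 7 of 8 and 5 of 5 in each treatment.

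Elongation factors and some paralogues rose over the same interval. Eef2 in tamoxifen had 1905 and 1763 FPKM at 72 h, against 1050.2 and 1084 at 48 h (log2 change 0.78 ± 0.06 SE, adjusted p = 7.47e-06). In ethanol it had 1692 and 1614 FPKM at 72 h, against 1016 and 987 at 48 h (0.72 ± 0.06 SE, adjusted p = 9.19e-06). Eef1a1 changed by 0.42 in tamoxifen and 0.40 in ethanol, both past the test. Both calls were lost with quantile normalization. That setting gives equal ranks equal values, so it cannot show a change of a gene that keeps its rank among the highest. The loss therefore says little about the rise of Eef1a1. Of the 7 elongation factor genes 6 rose and 0 fell in tamoxifen, and 4 rose and 1 fell in ethanol, against 3 and 1 in each treatment with median-ratio scaling. Eif4e3, a scarce cap-binding homologue, had 3.27 and 2.81 FPKM at 72 h, against 1.47 and 1.03 at 48 h in tamoxifen (0.85 ± 0.13 SE, adjusted p = 0.000379) and 3.49 and 3.14 FPKM at 72 h, against 1.05 and 1.42 at 48 h in ethanol (0.95 ± 0.13 SE, adjusted p = 0.000173). The helicase paralogues moved in opposite directions, with Eif4a1 still the higher at 72 h. Eif4a2 changed by 0.64 in tamoxifen and 0.81 in ethanol, and Eif4a1 by -0.39 in tamoxifen and -0.28 in ethanol. Their ratio, Eif4a1 over Eif4a2 in group means of FPKM, was 3.25 at 72 h and 6.67 at 48 h in tamoxifen, and 3.33 at 72 h and 7.12 at 48 h in ethanol. Eef1a2 had 2.34 and 1.94 FPKM at 72 h, against 0.932 and 0.683 at 48 h in tamoxifen (0.80 ± 0.13 SE, adjusted p = 0.000541). The fibroblast sum was also higher at 72 h in tamoxifen (2137 to 2283 FPKM, against 1528 to 1551 FPKM at 48 h), and slightly so in ethanol (1149 to 1199 FPKM, against 1064 to 1111 FPKM at 48 h). Of 35 fibroblast markers 30 were called higher and 0 lower in tamoxifen, and 9 higher and 8 lower in ethanol. The trophoblast sum was higher at 72 h in both treatments (129.5 to 136 FPKM, against 64.7 to 67.5 FPKM at 48 h in tamoxifen, and 121 to 122 FPKM, against 54.9 to 58.2 FPKM at 48 h in ethanol), with 4 of 5 tested markers called higher in each. The stem cell sum was 3541 to 3993 FPKM at 72 h, against 3298 to 3398 FPKM at 48 h in tamoxifen, and 4447 to 4594 FPKM at 72 h, against 3444 to 3523 FPKM at 48 h in ethanol. The single stem cell markers went both ways. Of 13 tested, 5 were called higher and 7 lower in tamoxifen (median log2 change -0.23), and 6 higher and 5 lower in ethanol (0.05). The part of these cell types in the time changes was not tested.

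**Figure D4:**
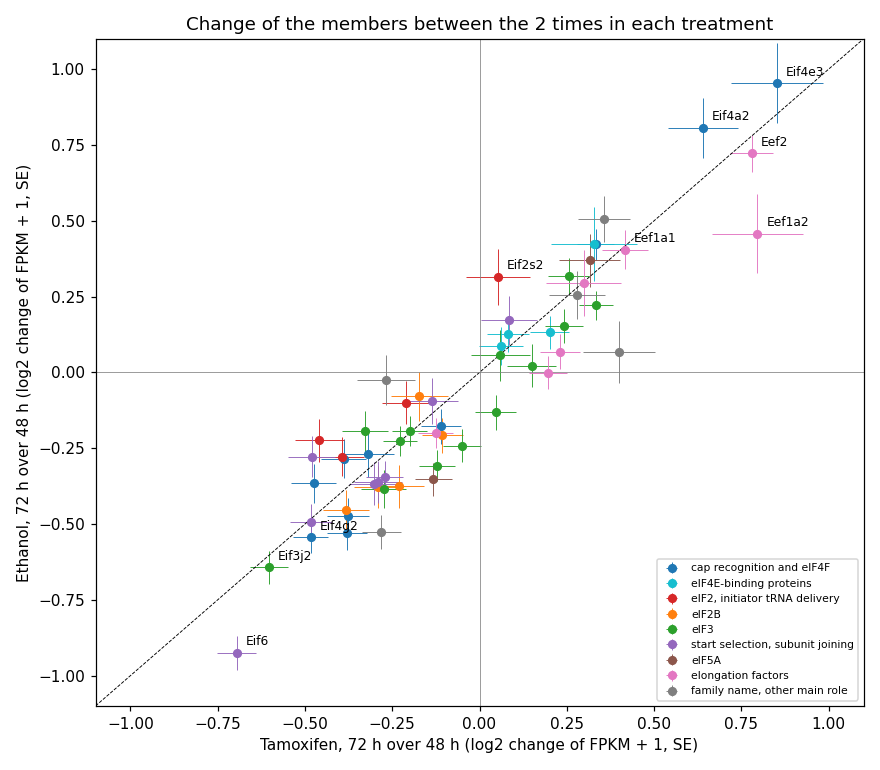
Log2 change of FPKM + 1, 72 h over 48 h, of the 58 tested members in tamoxifen (horizontal) and ethanol (vertical), with standard errors and colours by role. The points lie along the dashed line of equal change, from Eif6 at lower left (-0.70 and -0.92) to Eif4e3 at upper right (0.85 and 0.95).

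Other regulators of translation, a list of 57 genes of which 54 were in the tables and 53 were tested, were, both directions together, called no more often than all genes in tamoxifen against ethanol. At 72 h 3 were higher and 10 lower (beside 38.5% of all genes, 20.1% higher and 18.5% lower), and at 48 h 1 was higher and 5 were lower (beside 12.4%, 7.88% higher and 4.47% lower), with median log2 changes of -0.10 at 72 h and -0.05 at 48 h. Of 9 tested initiation partners 5 were lower at 72 h. They included the helicase gene Dhx29, with 11.0 and 10.9 FPKM in tamoxifen, against 16.3 and 14.7 in ethanol (log2 change -0.46 ± 0.07 SE, adjusted p = 0.000658). Ddx3x, another helicase gene, changed by -0.22 at 72 h (adjusted p = 0.0102, with 0.005 to 0.0796 over the alternatives and lost without ethanol 72 h replicate 2) and -0.21 at 48 h (adjusted p = 0.0334). Pabpc4, a poly(A)-binding protein gene, had 78.4 and 77.2 FPKM in tamoxifen, against 106 and 98.4 in ethanol (-0.39 ± 0.06 SE, adjusted p = 0.000536), and Paip2b, a gene for a repressor of poly(A)-binding protein, had 30.9 and 33.5 FPKM in tamoxifen, against 26.8 and 27.9 in ethanol (0.22 ± 0.06 SE, adjusted p = 0.0143, lost without tamoxifen 72 h replicate 2 or ethanol 72 h replicate 1, with 0.00714 to 0.0847 over the alternatives).

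The enzymes that place hypusine on eIF5A moved apart. Dhps, the gene for the first enzyme, had 28.9 and 29.9 FPKM in tamoxifen, against 36.5 and 41.1 in ethanol at 48 h (log2 change -0.39 ± 0.07 SE, adjusted p = 0.00571) and 20.6 and 19.9 FPKM in tamoxifen, against 25.2 and 26.0 in ethanol at 72 h (-0.33 ± 0.07 SE, adjusted p = 0.00368). Dohh, the gene for the second enzyme, had 76.2 and 73.3 FPKM in tamoxifen, against 60.0 and 66.4 in ethanol at 48 h (0.24 ± 0.07 SE, adjusted p = 0.0435) and 86.9 and 79.0 FPKM in tamoxifen, against 71.2 and 74.4 in ethanol at 72 h (0.19 ± 0.07 SE, adjusted p = 0.0517). With limma Dhps was thus lower at both times and Dohh was called higher at 48 h alone (lost in 6 fits that left out 1 library and under 5 other alternatives). The authors' deposited comparisons differ in timing. They called Dhps lower at 48 h but not at 72 h (the authors' adjusted p = 0.0621). Dohh was called higher there at 72 h (the authors' adjusted p = 0.00362) but not at 48 h (0.581). Paip2b, called higher with limma at 72 h, was not called in the authors' comparison at that time (the authors' adjusted p = 0.129). Around eIF2 alpha, the gene of the phosphatase regulator Ppp1r15a had 8.95 and 8.97 FPKM in tamoxifen, against 6.84 and 6.98 in ethanol at 72 h (0.33 ± 0.07 SE, adjusted p = 0.00389), and the kinase gene Eif2ak3 had 7.59 and 7.67 FPKM in tamoxifen, against 5.84 and 5.67 in ethanol (0.35 ± 0.09 SE, adjusted p = 0.0114, lost without ethanol 72 h replicate 2, with 0.00859 to 0.0586 over the alternatives). Both were called higher in tamoxifen, each as the only call of its group at 72 h. Estimates were positive for 3 of the 4 kinase genes and for 2 of the 5 genes in the group of Ppp1r15a. The mitochondrial factor genes Gfm2, for ribosome recycling, and Mtif2, for initiation, had 16.0 and 14.9 FPKM in tamoxifen, against 22.0 and 22.2 in ethanol (-0.49 ± 0.06 SE, adjusted p = 0.000236) and 11.5 and 13.1 FPKM in tamoxifen, against 16.5 and 16.2 in ethanol (-0.38 ± 0.07 SE, adjusted p = 0.00244). The 48 h calls of Dhps, Pabpc4, Gfm2, Ddx3x and Dhx29 were each lost without at least 1 of the 48 h libraries, and 0 to 5 of the list were lower at 48 h when 1 library was left out. For the difference between times 0 of 53 passed.

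In the authors' deposited table of comparisons 60 members had a row. At 48 h it called 0 members higher and 10 lower, beside 11.9% of its 16729 genes. At 72 h the authors' deposited table called 9 higher and 15 lower, beside 32% of its 17011 genes. All 4 members called with limma at 48 h and all 21 at 72 h had the same sign in the authors' deposited table, which called all 4 and 19 of the 21, leaving out Eif3c and Eif4a3. It also called members lower that limma did not call. These were Eif4e, Eif2s2, Eif2b2, Eif3d, Eef1b2 and Eef1e1 at 48 h, and Eif4a2, Eif3j2, Eif1ax, Eif5 and Eif5b at 72 h.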

How the data were processed

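RNA of mouse embryonic stem cells on feeder fibroblasts was enriched for mRNA with beads and sequenced as paired ends, per the labels' protocols, in 8 libraries of 4 groups (tamoxifen or ethanol for 48 h or 72 h). The authors deposited 1 table of FPKM values per library, with confidence bounds and a status. The submitters' processing notes name Cufflinks 1.3.0, TopHat 1.4.1, BWA 0.6.1, DESeq and HTSeq, and mm9 as the genome build, while roles and other versions are not given in the sources used here. For each time the authors also deposited a table of comparisons, which, per the file headers, holds group means of scaled counts (a signal pooled over libraries), their ratio as a fold change, its log2 value, and p-values. The fold columns, as deposited, run ethanol over tamoxifen, so the sign was turned here.

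Of 20789 entries per library, 209 with a status other than OK in any library were left out, and the entry of highest mean was kept per identifier, leaving 20388. Genes with at least 1 FPKM in 2 libraries (11867) entered one limma fit (R 4.3.3, limma 3.58.1) on log2(FPKM + 1), which understates changes of low genes. The fit held a mean per group, a mean trend in eBayes and 4 residual degrees of freedom, and each of 5 contrasts had two-sided p-values with Benjamini-Hochberg adjustment across all tested genes. A call is an adjusted p at or under 0.05. No value was rescaled. Libraries of a group correlated at 0.995 to 0.997. Fragments behind a value were taken from the distance to its upper bound as 2 SD of a Poisson count, and cover counting error only. Starts in the files count from 0, and 1 was added. The fit was tested on simulated data.

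Near copies were sought with BLAST 2.17.0 among GENCODE transcripts of GRCm38. Start-site bases come from RefSeq promoters of GRCm38.p6, matched by symbol (46 of 61 members, with those on the chromosome of Eif1a left out). The members, lists and the rule for named genes were chosen with earlier results of these data known. All members are accounted for. Given by library are those called at 48 h or 72 h, the 6 of highest mean, the uncalled member of smallest p at each time and the 3 largest changes each way between times (in part as changes only), and of the other regulators the 6 called genes of smallest p in each direction at each time, 1 of which is not reported here. Any other gene named was chosen after its values were seen. Alternatives tried were other pseudocounts (0.1 and 5), other filters, median-ratio scaling, quantile normalization, no trend, a replicate block, entries of any status, only the 4 libraries compared, and each library left out.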

Additional observations from a re-analysis of the deposited data

How the results depend on the processing

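At 48 h the 4 lower members were 1 without a filter, 2 with quantile normalization, 1 without the trend and 1 with the replicate block, and 0 to 5 with 1 library left out. Their median change was -0.0632 with median-ratio scaling and -0.0619 to -0.0211 with 1 library left out. At 72 h the 11 higher members were 6 with quantile normalization, 7 without the trend and 6 with only the 4 libraries compared. With 1 library left out, 2 to 11 members were higher and 5 to 12 lower, and the median was -0.0104 to 0.0242. The median difference between times was 0.0054 with quantile normalization. Between 72 h and 48 h, median-ratio scaling left 9 members higher in tamoxifen and 9 in ethanol. The median in tamoxifen was then -0.2428, it was -0.0448 with quantile normalization, and it ran from -0.1412 to -0.0942 with 1 library left out. The median in ethanol was -0.2842 with median-ratio scaling, -0.0595 with quantile normalization, -0.1162 without a filter, -0.1941 with a mean FPKM of at least 5 and -0.1778 with entries of any status. Eef1b2 in ethanol, 72 h over 48 h, had a log2 change of -0.00 that became 0.2519 with quantile normalization. The cause of these shifts was not tested.

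Of the other regulators, the 1 called higher at 48 h (Dohh) became 0 without a filter, 0 with median-ratio scaling, 0 with quantile normalization, 0 without the trend and 0 with the replicate block, and 0 to 1 with 1 library left out. The 5 called lower at 48 h became 3 without a filter, 8 with median-ratio scaling and 2 without the trend, and 0 to 5 with 1 library left out.

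Replicate numbers are shared by the groups, and the correlations of same-numbered deviations were 0.0024 between treatments at 48 h, -0.0615 between treatments at 72 h, 0.145 between times in ethanol and -0.276 between times in tamoxifen. They had no common sign, so the libraries are taken to share only a number. With the number as a replicate block, 1 member was lower at 48 h, and at 72 h 19 of the 21 calls remained, without Eif3f and Eif4a1. With 2 libraries in a group, the median standard error of a member's change was 0.064 on the log2 scale, which limits what smaller changes can show, and a group left with 1 library is assumed to vary like the others.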

Other observations

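Summed levels of whole role groups were also set side by side, without a test. The elongation factor genes summed to 9437 and 9569 FPKM in the tamoxifen libraries and 9003 and 8736 FPKM in the ethanol libraries at 72 h. At 48 h they summed to 7077 and 7029.8 FPKM in tamoxifen and 6828 and 6843 FPKM in ethanol. The genes of eIF2 and initiator tRNA delivery summed to 534 and 617 FPKM in tamoxifen and 761 and 795 FPKM in ethanol at 72 h, and to 647 and 579.5 FPKM in tamoxifen and 684 and 719.6 FPKM in ethanol at 48 h. The eIF3 genes, with Eif3j1 included as listed, summed to 2228 and 2216 FPKM in tamoxifen and 2145 and 2121 FPKM in ethanol at 72 h. At 48 h the eIF3 sums overlapped, at 2285 and 2244 FPKM in tamoxifen and 2258 and 2302 FPKM in ethanol. All members together summed to 16677 and 17017 FPKM in tamoxifen and 16474 and 16224 FPKM in ethanol at 72 h.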
